A study of Mus musculus with 2 samples.

Results

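Endothelial cells seal the vessel wall where neighbouring cells meet, and the 10 genes described here encode proteins of these contacts. They were Cldn5, Cldn11 and Ocln of the tight junction strands, the scaffold gene Tjp1, the immunoglobulin-like adhesion genes Esam, F11r, Jam2 and Jam3, and Cdh5 and Pecam1, and they were taken by symbol from the 28692 genes of the count tables. The cells were CD31+ cells isolated with magnetic beads from the mesentery of C57BL/6 mice at postnatal day (P) 8 and profiled by droplet-based 3′ single-cell RNA sequencing. CD31 is the product of Pecam1, so one of these genes was itself the basis of the isolation. The control library and the Flcn iΔEC library (hereafter KO) each held the pooled cells of 3 mice. Flcn iΔEC mice are Cdh5-BAC-CreERT2+ Flcn flox/flox, in which Cre recombinase, active after 4-hydroxytamoxifen, is driven by the endothelial Cdh5 regulatory sequences. Both groups are listed with 4 injections of 40 µg of 4-hydroxytamoxifen under the skin, the first at P2, the next at P3.5 and P5 and the last at P6.5, and the genotype of the control mice is not given in the sources used here. Each group was thus 1 library, so no test between groups was possible, and every interval below covers counting error only, not the spread between mice.

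In a tight junction, claudins and occludin form strands that close the space between cells, and Tjp1 ties these strands to the actin cytoskeleton. In the adherens junction of endothelium, VE-cadherin, the product of Cdh5, holds neighbouring cells together through catenins, and the JAM family, Esam and Pecam1 lie at the same borders, where leukocytes pass. Lymphatic capillaries are known for button-like, discontinuous junctions and collecting lymphatics for continuous ones, and veins, arteries and lymphatics use these proteins in different amounts.

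Cells with at least 2 Cdh5 UMIs (unique molecular identifiers, each the count of a captured transcript) were taken as endothelial: 566 of 6814 control cells and 892 of 4459 KO cells, with median depths of 16127 and 24415 UMIs. The 10 genes and 47 further junction genes were kept out of the features used for clustering, and 13 clusters were named from marker genes or their leading genes. Of these, 2 clusters led by T, NK or B cell genes were not described as endothelial types, which left 21 sums of 11 clusters by library, since the H19-high cluster held no control cells. Levels are CPM, the summed UMIs of a gene scaled to 1000000 UMIs of all genes in the cells of a cluster and library, and a count of 3′ ends does not allow levels of different genes to be compared. The libraries also differed in sex, with Xist at 9 and 63462 UMIs and 4 Y-linked genes at 15535 and 17 UMIs in control and KO cells, so sex and genotype cannot be told apart. None of the 10 genes lies on the X or Y chromosome. Flcn itself was at 10.2 CPM in control and 9.74 CPM in KO endothelial cells, and 3′ counts need not show an inner deletion.

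Counts of genes past 2-fold use the CPM ratio with 1 count added and cover the genes with at least 50 summed UMIs in the comparison, called genes with enough counts below. Over the pooled non-endothelial cells of the same library, 10 of 10 were at least 2-fold higher in the gated cells of the control library (background 28.7% of all genes tested) and 9 of 10 in the KO library (background 27.5%), and Cdh5 had set the gate. The exception was Ocln, with a ratio of 1.06 (0.863 to 1.29) in KO cells against 2.43 (1.87 to 3.16) in control cells, and single non-endothelial types held more of it than the gated cells did. Gated cells held 7.09 CPM of Ocln in control and 6.73 CPM in KO cells, and pooled non-endothelial cells 2.91 and 6.36 CPM. In that pool 31 control epithelial-like cells gave 109 of 147 Ocln UMIs. In the KO library 71 such cells gave 199 of 212.

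The regions before the starts of the 2 claudin genes are shown because the results below turn on where these genes were read. They are the 250 bases before the RefSeq start of each gene on GRCm38.p6, 5′ to 3′ on the plus strand, at chr16:18776597-18776846 for Cldn5 and chr3:31149670-31149919 for Cldn11, and the RefSeq table held 5 of the 10 genes. Capitals mark every match on either strand to the ETS core GGAA, the GC box GGGCGG, the CCAAT box CCAAT, the E-box CACGTG, the SOX core ACAAT, the forkhead letters TAAACA or the TATA box TATAAA.
Cldn5: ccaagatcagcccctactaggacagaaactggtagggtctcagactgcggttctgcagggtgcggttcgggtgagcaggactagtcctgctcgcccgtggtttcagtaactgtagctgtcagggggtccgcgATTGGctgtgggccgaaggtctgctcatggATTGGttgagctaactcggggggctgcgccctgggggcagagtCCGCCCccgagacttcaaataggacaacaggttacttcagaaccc
Cldn11: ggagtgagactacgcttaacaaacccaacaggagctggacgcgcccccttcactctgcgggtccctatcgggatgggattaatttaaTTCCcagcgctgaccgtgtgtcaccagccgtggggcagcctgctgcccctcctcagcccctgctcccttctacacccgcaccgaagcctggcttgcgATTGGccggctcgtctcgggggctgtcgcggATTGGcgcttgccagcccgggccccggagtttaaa
Both windows held 2 CCAAT boxes, read here as ATTGG, at 83 and 113 bases from the start of Cldn5 and at 30 and 61 bases from that of Cldn11. At least 1 CCAAT box stood in 33.8% of the 32851 windows of the same length in the table, and 2 or more stood in 10.1%. The Cldn5 window added a GC box 39 bases from the start (in 32.7% of windows) and the Cldn11 window a single GGAA 159 bases from it (in 93.4% of windows), and no matches overlapped. No E-box, SOX, forkhead or TATA letters were found in either window, against shares of 6.02%, 27.7%, 12% and 12.4% of all windows. The GC content was 59.6% before Cldn5 and 63.6% before Cldn11, with a median of 52.4% over the table.

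Cldn5, the main claudin of endothelial strands (Ensembl ENSMUSG00000041378, chr16:18776847-18778262), was read in every endothelial cluster. In collecting lymphatic-like cells it was at 3419.8 (3249.7 to 3597) CPM in the control and 2218 (2165 to 2271) CPM in the KO library, with the 95% Poisson interval in parentheses. In Mmrn1-high lymphatic-like cells it was at 3150.3 (3034 to 3270.4) and 1853 (1812 to 1895) CPM. In large artery-like cells it was at 2435 (2345 to 2527) and 2410.1 (2352 to 2469) CPM. These 3 clusters were the highest in control cells, whereas in KO cells the capillary lymphatic-like cluster, at 1797 CPM in control and 2579 CPM in KO cells, stood above all of them. Venous-like cells held 1241 (1186 to 1299) and 1624 (1580.2 to 1669) CPM, and the Cxcl12- and Rbp7-high cluster, which carried genes of small blood vessels, 1196 (1143 to 1250.4) and 1665 (1583 to 1751) CPM. The lowest levels were in Esm1-high cells, at 228 and 227 CPM, and in cells like those of high endothelial venules, the sites where lymphocytes leave the blood, at 277 and 513 CPM. In the control order, the run of Marco-high, venous-like and Cxcl12- and Rbp7-high cells did not differ from step to step beyond counting error, nor did high endothelial venule-like and Esm1-high cells. In the KO order the same held within the run of H19-high, Mmrn1-high and proliferating-like cells and within that of Cxcl12- and Rbp7-high, venous-like and Marco-high cells.

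Cldn11, better known from myelin and the Sertoli cell barrier (ENSMUSG00000037625, chr3:31149920-31164324), was read most in collecting lymphatic-like cells. Collecting lymphatic-like cells held 1163 (1065 to 1268) CPM in control and 632 (604 to 661) CPM in KO cells. Mmrn1-high lymphatic-like cells held 82.7 (64.7 to 104) and 115 (105 to 126) CPM, so the collecting cluster was 14.1-fold (11 to 18.3) higher in control and 5.49-fold (4.97 to 6.08) higher in KO cells. Among the 7 genes with enough counts in control and the 8 in KO cells, Cldn11 was the only one past 2-fold between these clusters (background 8% in control and 5.46% in KO cells). Capillary lymphatic-like cells were far lower, with 7 UMIs (30.1 CPM) in control and 9 UMIs (16.1 CPM) in KO cells. Outside the clusters named lymphatic-like, Marco-high cells held 163 and 185 CPM and venous-like cells 76.6 (63.3 to 91.8) and 115 (103 to 127) CPM. Marco-high cells also held the lymphatic gene Prox1, at 227 CPM in control and 202 CPM in KO cells, but were not counted as lymphatic-like. Large artery-like cells had 0 UMIs in the control library, which allows up to 2.63 CPM, and 3 UMIs in the KO library. Esm1-high cells had 0 UMIs in both libraries, and the Cxcl12- and Rbp7-high cluster had 3 UMIs in control and 0 in KO cells. Mmrn1-high lymphatic-like and venous-like cells were neighbours in this order in both libraries, with a ratio whose interval includes 1.

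Ocln, a membrane protein of the strands that is abundant in epithelium (ENSMUSG00000021638, chr13:100496507-100552718), was the scarce member. It reached 100 CPM in 0 of 21 sums. In large artery-like cells it was at 21.9 (14.2 to 32.4) CPM in control and 35.5 (28.8 to 43.3) CPM in KO cells, and in venous-like cells at 16.4 (10.6 to 24.2) and 14.4 (10.5 to 19.2) CPM. Lymphatic-like cells together held 1 Ocln UMI in the control and 6 UMIs in the KO library. Tjp1, the scaffold also known as ZO-1 (ENSMUSG00000030516, chr7:65296165-65527781), was in contrast read in every cluster. It ranged from 62.7 CPM in KO capillary lymphatic-like cells to 255 CPM in control Cxcl12- and Rbp7-high cells. It was at 220.3 (194 to 249) and 146 (132 to 161) CPM in large artery-like cells and at 159 (139.7 to 180.3) and 112 (101 to 124) CPM in venous-like cells. In the KO order none of the neighbouring clusters differed in Tjp1 beyond counting error. The ends of that order, Cxcl12- and Rbp7-high and capillary lymphatic-like cells, stood at 170 and 62.7 CPM. Small steps between ranked neighbours thus do not show that the clusters were level.

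Jam2, whose protein JAM-B is a receptor for its relative JAM-C (ENSMUSG00000053062, chr16:84774123-84825928), divided the blood from the lymphatic-like clusters. Venous-like cells held 304 (277 to 333) CPM in control and 136 (123 to 149) CPM in KO cells. The Cxcl12- and Rbp7-high cluster held 197 (176 to 221) and 134 (111 to 159.7) CPM, large artery-like cells 134 (114 to 157) and 115 (102 to 128) CPM. In control cells venous-like cells were above the next cluster beyond counting error, whereas in KO cells the venous-like, Cxcl12- and Rbp7-high, Esm1-high and large artery-like clusters did not differ from neighbour to neighbour. Lymphatic-like cells had 0 Jam2 UMIs in the control library, which allows up to 1.94 CPM, and 4 UMIs in the KO library. Marco-high cells held 3 and 8 UMIs, and high endothelial venule-like cells lay in between at 32.5 and 42.2 CPM. After each cell had been thinned to 2000 UMIs, 41.1% of control and 22.1% of KO venous-like cells kept a Jam2 UMI, against 0% of lymphatic-like cells in both libraries. Without thinning these shares were 93.2% and 82.9% of venous-like cells and 0% and 1.35% of lymphatic-like cells.

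Jam3, which encodes JAM-C (ENSMUSG00000031990, chr9:27097384-27155421), followed a different order. Marco-high cells, a small cluster of 18 control and 43 KO cells in which 37.7% of cells had at least 2 UMIs of the leukocyte gene Ptprc, held the most, at 394 (349 to 445) CPM in control and 326 (298 to 357) CPM in KO cells. Esm1-high cells held 221 and 124 CPM and high endothelial venule-like cells 127 (115 to 140.3) and 123 (112 to 134) CPM. Venous-like cells held only 20.9 and 8.74 CPM, and large artery-like cells 12.3 and 7.68 CPM. The pair of JAM genes thus did not share their highest clusters. In the clusters named lymphatic-like, which leave out the Marco-high cells, Jam3 was read at low levels. Jam2 had 0 UMIs in control and 4 UMIs in KO cells there.

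F11r, which encodes JAM-A (ENSMUSG00000038235, chr1:171437535-171464603), was at 100 CPM or more in all 21 sums, as were Cldn5, Cdh5 and Pecam1. It ranged from 120.2 CPM in control high endothelial venule-like cells to 492 CPM in control collecting lymphatic-like cells. Esam, an endothelial adhesion gene of the same superfamily (ENSMUSG00000001946, chr9:37528078-37538319), was highest in small blood vessel clusters, at 842 (739.7 to 955) and 826 (705 to 961) CPM in Esm1-high cells and 836 (792 to 882) and 651 (599.6 to 705) CPM in the Cxcl12- and Rbp7-high cluster. It was at 534 and 408 CPM in venous-like cells and at 107 and 73.5 CPM in Mmrn1-high lymphatic-like cells. In capillary lymphatic-like cells there were 0 Esam UMIs in the control library, which allows up to 12.9 CPM, and 11 UMIs in the KO library.

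Pecam1, the CD31 gene (ENSMUSG00000020717, chr11:106654217-106750628), was read in all clusters and highest in large artery-like cells, at 1744 (1668 to 1823) CPM in control and 1545 (1499 to 1592) CPM in KO cells. Venous-like cells held 1279 and 966 CPM and Mmrn1-high lymphatic-like cells 549 and 360.1 CPM. Levels of Cdh5 (ENSMUSG00000031871, chr8:104101625-104144511), from 333 to 1274 CPM, are given as a description, since at least 2 UMIs of this gene were required of each cell. On this scale Cdh5 was highest in the Cxcl12- and Rbp7-high cluster and lowest in capillary lymphatic-like cells.

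**Figure D1:**
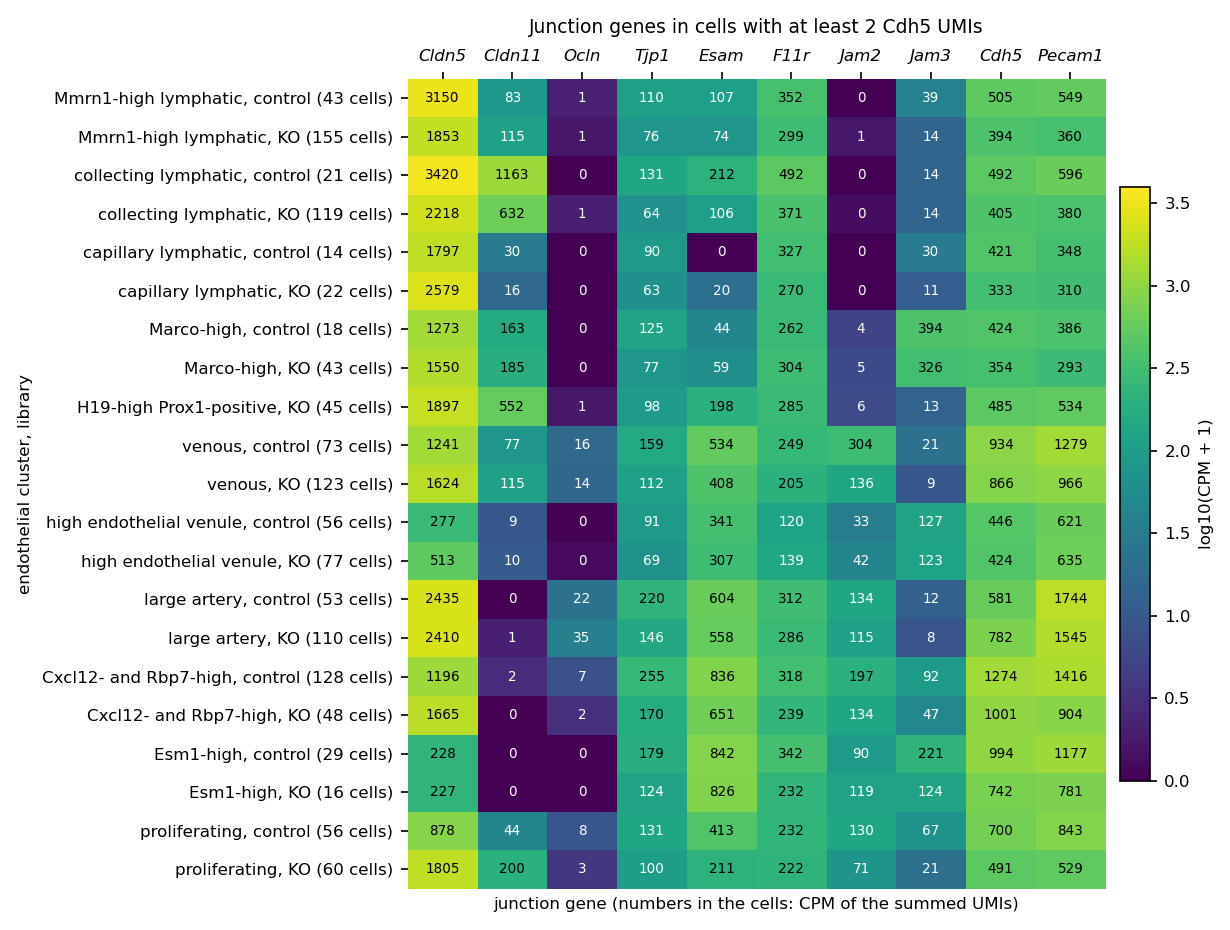
Levels of the 10 junction genes (columns, CPM on a logarithmic colour scale) in each endothelial cluster and library (rows). Colours are to be read down a column: Cldn11 is highest in the collecting lymphatic-like rows, Jam2 in venous-like cells of the control library and Jam3 in the Marco-high rows.

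Lymphatic-like and blood endothelial cells were then set against each other within each library, the Mmrn1-high, collecting and capillary lymphatic-like clusters on one side and the venous-like, large artery-like and Cxcl12- and Rbp7-high clusters on the other. In control cells 5 of the 10 genes passed 2-fold (background 16.8%) and in KO cells 6 (background 19.4%), of which Cdh5 had also set the gate. With the mean of per-cell CPM, which weights each cell equally, the counts were 9 and 6, for which no background over all genes was taken. Cldn11 was the only one of them that was higher in lymphatic-like cells, by 13.7-fold (11.2 to 16.8) in control and 5.71-fold (5.11 to 6.39) in KO cells. Lower in lymphatic-like cells were Esam, by 5.51-fold (4.75 to 6.42) in control and 6.09-fold (5.6 to 6.64) in KO cells, Pecam1, by 2.73-fold (2.54 to 2.94) and 3.26-fold (3.13 to 3.41), and Ocln, whose ratios of 0.0452 (0.00113 to 0.262) and 0.0362 (0.0131 to 0.0808) rested on 1 and 6 UMIs in lymphatic-like cells. Jam2 was at least 113-fold lower in control cells, with the count of 0 set to 3, and 249-fold (96.8 to 915) lower in KO cells. The ratio of Cdh5 was 0.505 (0.467 to 0.546) in control and 0.463 (0.443 to 0.484) in KO cells, on both sides of the limit of 2-fold. F11r was moderately higher in lymphatic-like cells, at 1.33 (1.21 to 1.47) and 1.34 (1.26 to 1.43), and Tjp1 lower, at 0.535 (0.453 to 0.63) and 0.53 (0.476 to 0.589). Cldn5 was 1.96-fold (1.89 to 2.04) higher in lymphatic-like cells of the control library but nearly level in the KO library, at 1.05 (1.03 to 1.08). Over the 10 genes the libraries therefore shared the direction of each gene past 2-fold, with a smaller Cldn11 ratio in KO cells. For Cldn11 the mean of per-cell CPM was 383 in lymphatic-like and 23.4 in blood endothelial cells of the control library, and 324 and 33.1 in those of the KO library. The summed Cldn11 level of the blood endothelial group was 28.1 CPM in control and 54 CPM in KO cells. Cxcl12- and Rbp7-high cells, nearly without Cldn11, were 128 of the 254 control but 48 of the 281 KO cells of this group, so cluster shares and levels cannot be told apart in these sums.

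Within blood endothelium, large artery-like cells had less Cldn11 than venous-like cells, by at least 29.1-fold in control cells and 104-fold (35.5 to 509) in KO cells, where 3 UMIs stood in arterial cells. Jam2 was 2.27-fold (1.88 to 2.74) lower in arterial cells of the control library and had a ratio of 0.847 (0.73 to 0.982) in the KO library, and Ocln was 2.47-fold (1.72 to 3.59) higher in arterial cells of the KO library against 1.34 (0.739 to 2.43) in control. These made 2 of the 9 genes with enough counts past 2-fold in each library (background 13.6% and 12.7%). High endothelial venule-like cells differed from venous-like cells by 2-fold in 7 of the 9 genes with enough counts in control (background 24.9%) and in 5 of 9 in KO cells (background 21.8%). They had 6.08-fold (4.23 to 9.0) more Jam3 than venous-like cells in control and 14-fold (9.6 to 21.3) more in KO cells. In the same comparison Cldn5, Cldn11, Jam2 and Cdh5 were more than 2-fold lower in both libraries, with Cldn5 at 0.223 (0.206 to 0.242) and 0.316 (0.30 to 0.333) times its venous-like level. Cdh5 had also set the gate, which admits lower CPM in deeper cells. Median depths in control cells were 46154 UMIs in high endothelial venule-like and 15478 in venous-like cells. Of the high endothelial venule-like cells 72.2% had at least 2 Ptprc UMIs, against 2.04% of venous-like cells, and the part of leukocyte RNA in these lower levels was not tested.

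Between the libraries, most of the junction genes differed by less than 2-fold within a cluster. Over the 8 clusters with at least 20 cells in each library, 9 of 68 pairs of gene and cluster with enough counts were past 2-fold, or 13.2% (background 7.55% of such pairs over all genes), and Jam3 made up 4 of these. The 8 include the Ccl4-high cluster with T and NK cell genes, not described as an endothelial type. It gave 9 of the 68 pairs and 1 of those past 2-fold, that of Jam3. The 9 pairs became 5 without integration of the libraries, and also 5 without cells with at least 2 Ptprc UMIs, with no background taken for either. In venous-like cells 2 of the 10 genes passed it, against a background of 7.76%. Jam2 was 2.25-fold (1.97 to 2.57) lower in KO venous-like cells, 136 against 304 CPM, and Jam3, with 32 control and 28 KO UMIs, 2.4-fold (1.4 to 4.13) lower. In the same cells Cldn11 had a summed ratio of 1.5 (1.21 to 1.86), but the mean of its per-cell CPM was 79.6 in control and 75.1 in KO cells, the opposite direction. Without thinning 53.4% and 52% of these cells had a Cldn11 UMI. After thinning to 2000 UMIs the shares were 9.59% (3.94 to 18.8) and 17.2% (11 to 25.1). With thinning to 1000 UMIs they were 5.48% and 4.07%. Cldn5 had a ratio of 1.31 (1.24 to 1.38), whereas Tjp1, Esam, F11r and Pecam1 lay at 0.703, 0.764, 0.822 and 0.756. Prox1, the transcription factor of lymphatic identity, was at 50.4 CPM in control and 152 CPM in KO venous-like cells. The largest part of this cluster at a finer resolution, 61 control and 97 KO cells, kept a Jam2 ratio of 0.519 (0.45 to 0.598) and a Jam3 ratio of 0.502 (0.275 to 0.909), so that 0 of the 10 genes passed 2-fold there (background 6.7%). Without integration of the libraries the count in venous-like cells was also 0. Cldn11 had a summed ratio of 1.06 (0.826 to 1.37) in the largest part, with means of per-cell CPM of 82.8 in control and 52.2 in KO cells, and there Prox1 was at 44.6 and 64.7 CPM.

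In the lymphatic-like clusters most of the junction genes with enough counts were lower in the KO library, 7 of 8 in Mmrn1-high and 7 of 7 in collecting cells. Most of all genes tested were lower there too, with a median log2 ratio of -0.20 in each cluster. The direction alone thus does not set the junction genes apart. In collecting lymphatic-like cells Cldn11 was 1.84-fold (1.67 to 2.03) lower, Cldn5 1.54-fold (1.46 to 1.63), and Tjp1 and Esam, the pair past 2-fold (background 12.7%), 2.04-fold (1.49 to 2.74) and 2.01-fold (1.58 to 2.54) lower. The control side of this cluster was 21 cells, both ratios lay at the limit, and 0 genes passed it once ratios were divided by the median ratio of all genes. In Mmrn1-high lymphatic-like cells Jam3 was the only one of the 8 past 2-fold (background 11.4%), at 39 CPM in control and 14.1 CPM in KO cells, and Cldn5 was 1.7-fold (1.63 to 1.78) lower. Cldn11 in these cells went the other way, with a ratio of 1.39 (1.08 to 1.81). The median log2 ratio of the junction genes with enough counts was -0.55 in Mmrn1-high and -0.66 in collecting lymphatic-like cells, against -0.20 and -0.20 over all genes tested. Prox1 was lower too, by 1.55-fold (1.39 to 1.73) and 1.97-fold (1.78 to 2.16).

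In large artery-like cells 0 of the 8 genes with enough counts passed 2-fold (background 5.23%), and the Cldn5 ratio was 0.99 (0.947 to 1.03). In the Cxcl12- and Rbp7-high cluster 0 of 8 passed it as well (background 5.74%), with Pecam1 at 0.639 (0.589 to 0.692) and Cldn5 at 1.39 (1.3 to 1.49). At the finer resolution this Cldn5 ratio turned between the parts of the cluster, with 1421 CPM in control and 1023 CPM in KO cells of a Cxcl12-high part and 899 and 2411 CPM in a Gpihbp1-high part. High endothelial venule-like cells had 0 of 9 past 2-fold (background 4.27%), with Cldn5 at 1.85 (1.71 to 2.01) and Jam2, unlike in venous-like cells, at 1.3 (1.01 to 1.67). Proliferating-like cells had 3 of 9 (background 9.49%): Cldn11 was at 43.5 CPM in control and 200.2 CPM in KO cells, Cldn5 at 878 and 1805 CPM, and Jam3 at 67.3 and 20.6 CPM. Prox1 was 4.1-fold (3.47 to 4.86) higher in the KO cells of this cluster, and epithelial markers summed to 511 CPM in its control and 96.8 CPM in its KO cells; their part in these ratios was not tested. In the cluster with T and NK cell genes Jam3 alone of 9 genes passed 2-fold, at 0.346 (0.20 to 0.58), against a background of 4.21%. Median log2 ratios of the junction genes were -0.34 in venous-like, -0.12 in large artery-like, -0.48 in Cxcl12- and Rbp7-high, 0.03 in high endothelial venule-like, -0.51 in proliferating-like and -0.18 in Ccl4-high cells, beside -0.09, -0.10, -0.09, 0.01, -0.06 and -0.06 over all genes.

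**Figure D2:**
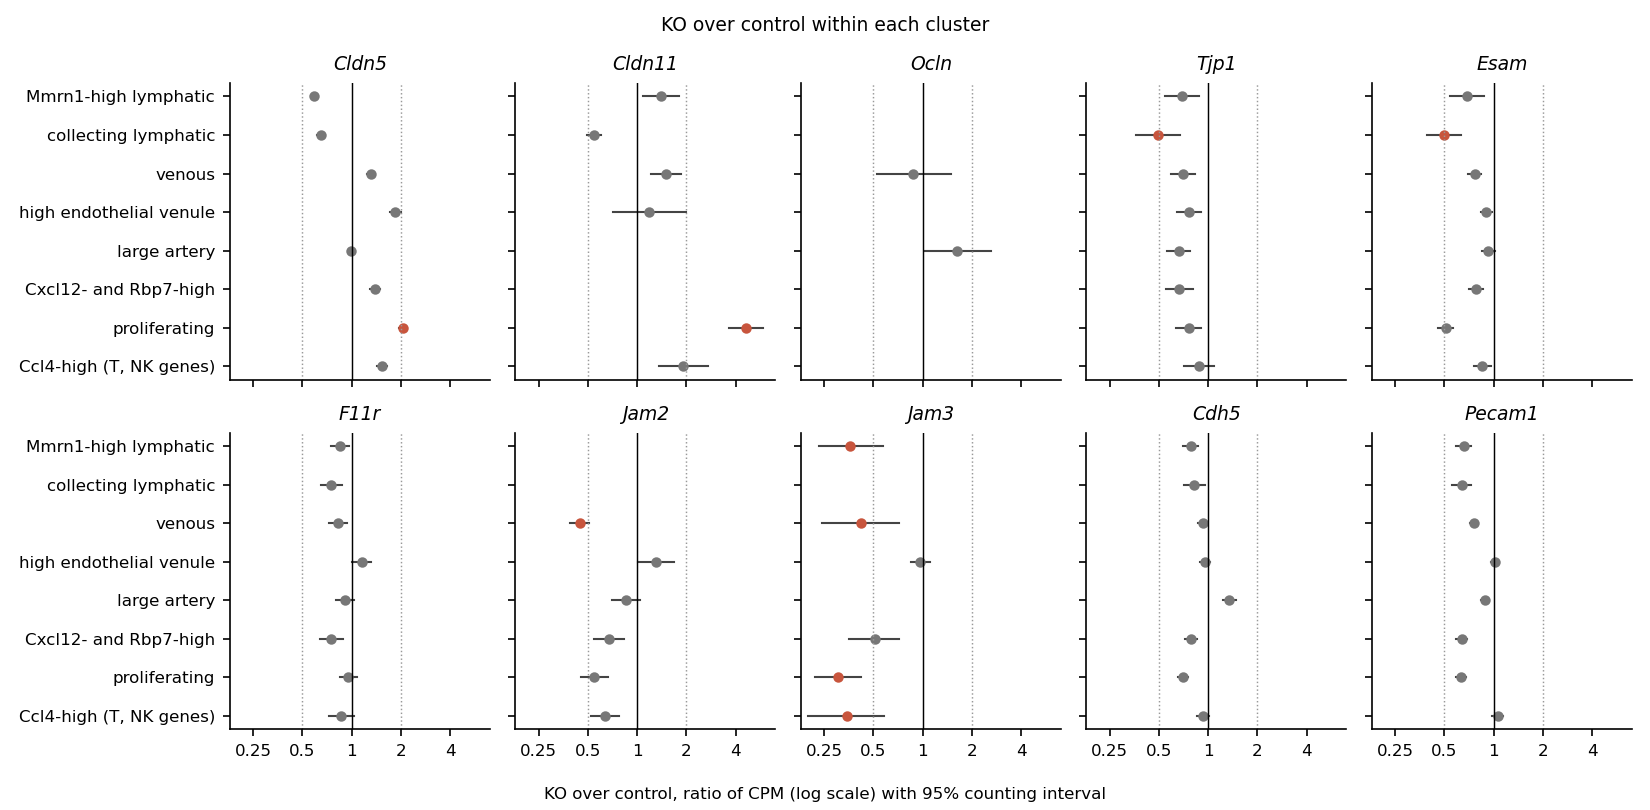
Ratio of KO to control CPM (logarithmic axis) of each junction gene with at least 50 summed UMIs, by cluster, with bars for the 95% interval of counting error and lines at 2-fold. Jam2 and Jam3 lie below the lower line in venous-like cells, Cldn11 and Cldn5 above the upper line in proliferating-like cells, and most other ratios lie between the lines.

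When all gated cells were pooled, Cldn11 was 2.4-fold (2.24 to 2.58) higher and Jam2 2.07-fold (1.92 to 2.22) lower in the KO library (2 of 10 genes past 2-fold, background 9.91%). Lymphatic-like cells, which held more Cldn11 and almost no Jam2, were 78 of the 566 control and 296 of the 892 KO gated cells. In lymphatic-like cells pooled over their clusters Cldn11 had a ratio of 0.802 (0.733 to 0.879), and Jam3 was the only one of 8 genes past 2-fold, at 0.449 (0.316 to 0.647), against a background of 10.4%. In such pooled sums the share of each cluster and the level within it cannot be told apart.

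A cluster of 45 KO cells, without a control cell, held Cldn11 but almost no Jam2. It was led by hemoglobin genes and H19, its erythroid markers summed to 4210.1 CPM, and it held Prox1 at 494 CPM, Vwf at 189 CPM and the lymphatic genes Lyve1 and Pdpn at 4.36 and 0.726 CPM. Since all its cells came from a single library, it may reflect that library rather than a cell type, and it was given no cell type name. The part of erythroid RNA in its levels was not tested.

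Against venous-like cells of the same library, 3 of the 8 genes with enough counts passed 2-fold in these cells (background 9.18%). Cldn11 was at 552 (514 to 593) CPM, 4.82-fold (4.25 to 5.48) above venous-like cells. The means of per-cell CPM were 624 and 75.1. Jam2 was at 5.81 (2.51 to 11.4) CPM from 8 UMIs, 23.3-fold (11.7 to 54.4) below venous-like cells. Esam was at 198 (175 to 223) CPM and 2.06-fold (1.8 to 2.35) below. Cldn5, at 1897 CPM, and F11r, at 285 CPM, were 1.17-fold (1.11 to 1.22) and 1.4-fold (1.23 to 1.58) above, and Pecam1 and Cdh5, at 534 and 485 CPM, 1.81-fold (1.67 to 1.96) and 1.79-fold (1.64 to 1.95) below. Tjp1 had a ratio of 0.877 (0.714 to 1.07) and Jam3 of 1.49 (0.779 to 2.8), both with intervals that include 1.

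Against lymphatic-like cells of the KO library Esam was the only one of 8 genes with enough counts past 2-fold, at 2.41 (2.09 to 2.79), against a background of 9.92%. Cldn11 was 1.79-fold (1.65 to 1.95) above the lymphatic-like clusters together and, at 0.875 (0.803 to 0.952), slightly below the collecting cluster alone, from which 0 of 8 genes with enough counts differed by 2-fold (background 8.95%). Jam2, which had too few counts for either comparison, was 11.4-fold (3.05 to 51.6) above lymphatic-like cells, a ratio of 8 to 4 UMIs, and collecting cells held 1 of the latter. Per cell, 63.6% (47.8 to 77.6) of the H19-high cells kept a Cldn11 UMI after thinning to 2000 UMIs, against 66.4% of collecting lymphatic-like and 17.2% of venous-like KO cells, and without thinning 97.8%, 100% and 52%.

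At a finer resolution 7 control and 26 KO venous-like cells joined the H19-high cluster. The joining KO cells held 188 CPM of Cldn11 and 67.4 CPM of Jam2, against 81.5 and 166 CPM in the largest venous-like part. Their ratios to that part were 2.31 (1.87 to 2.85) for Cldn11 and 0.406 (0.308 to 0.528) for Jam2, both past 2-fold (2 of 8 genes with enough counts, background 3.87%), with Prox1 at 5.36 (4.4 to 6.56). The 7 control cells held 15 Cldn11 and 26 Jam2 UMIs, or 113 (63.3 to 187) and 196 (128 to 287) CPM. In KO cells the levels thus ran from the largest venous-like part through the joining cells to the H19-high cluster, upwards for Cldn11 and downwards for Jam2, Esam and Pecam1. Venous-like cells had been clustered without these genes. The joining cells were, however, picked because they clustered with the H19-high cells, so a place in between was partly set by that choice. Median depths in KO cells were 16603 UMIs in the largest venous-like part, 36902 in the joining cells and 24691 in the H19-high cluster. The part of depth in these levels was not tested.

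**Figure D3:**
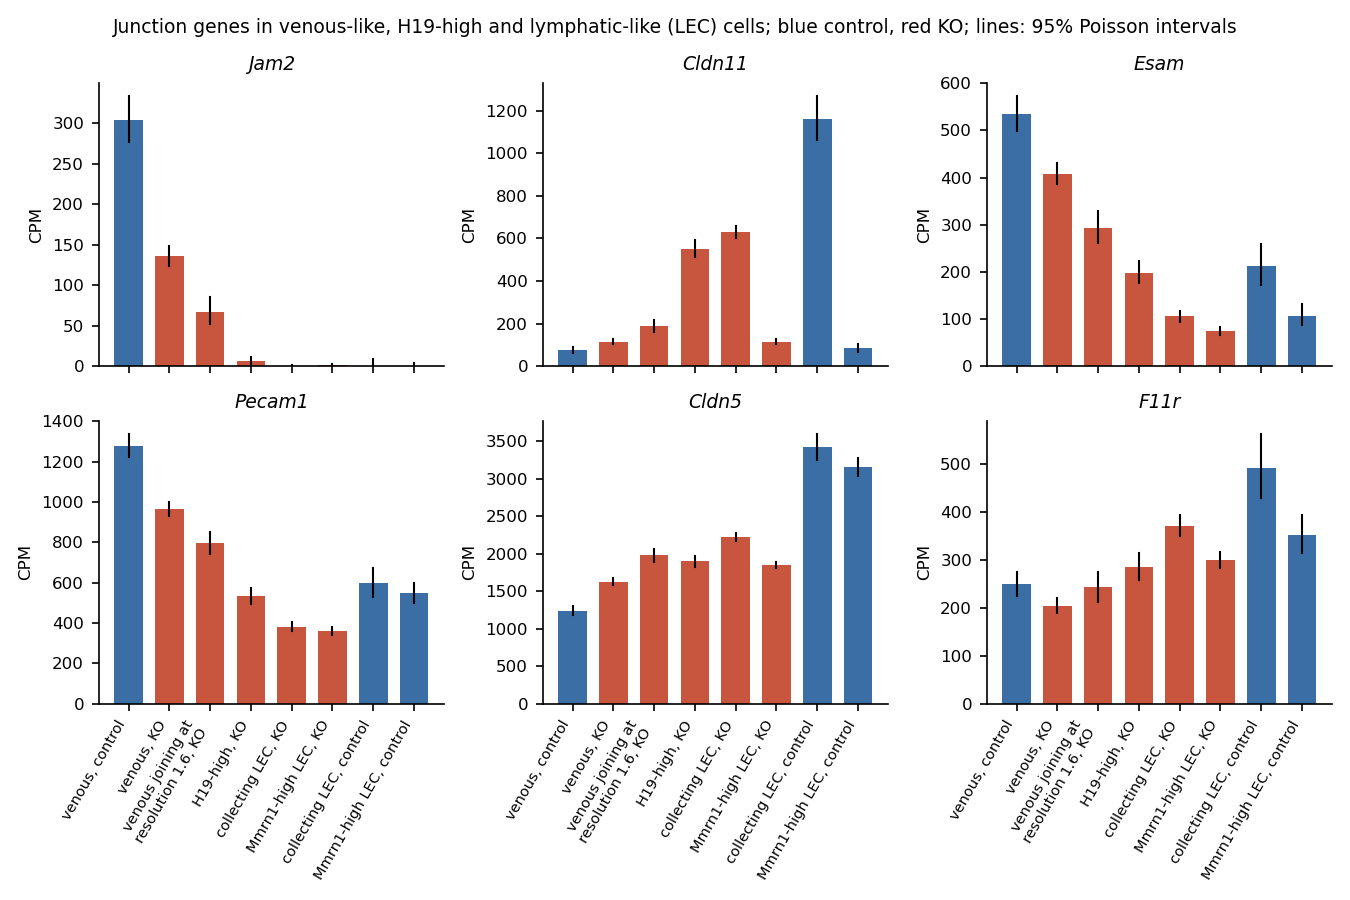
CPM of Jam2, Cldn11, Esam, Pecam1, Cldn5 and F11r (bars) with 95% Poisson intervals. Shown are venous-like cells, those that join the H19-high cluster at the finer resolution, the H19-high cluster, and collecting and Mmrn1-high lymphatic-like cells. The joining cells are a subset of the venous-like cells. In the KO library Cldn11 is higher and Jam2 lower at each step from all venous-like cells through the joining cells to the H19-high cluster.

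Of the 47 partner genes, 15 reached 100 CPM in a described cluster, among them the catenins that link cadherins to actin (Ctnnb1, Ctnna1, Ctnnd1, Jup), the nectin gene Nectin2, the phosphatase genes Ptprb and Ptprm, and Icam2. Over the 8 clusters compared between the libraries, 16 of 205 pairs of partner gene and cluster passed 2-fold, or 7.8%, near the 7.55% of pairs over all genes, and only 1 of them concerned a gene at 100 CPM or more. That gene was Cldn15, a claudin known for paracellular sodium channels, at 12.5 CPM in control and 107 CPM in KO cells of the Cxcl12- and Rbp7-high cluster, a ratio of 8.53 (5.24 to 14.6). In venous-like cells 0 partner genes were past 2-fold upwards and 2 downwards of 26 with enough counts (background 7.76% in either direction). The median log2 ratio of these 26 genes was -0.38, against -0.09 over all genes tested.

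In H19-high cells the partner genes past 2-fold from venous-like cells at 100 CPM or more were Jup, which encodes plakoglobin, at 2.77 (2.16 to 3.57), and Ptprb, the VE-cadherin-associated phosphatase VE-PTP, at 0.253 (0.228 to 0.28). Both ratios pointed towards the lymphatic-like levels of the control library. Of 25 partner genes with enough counts, 1 was higher and 3 lower by 2-fold than in KO venous-like cells (background 9.18%). Against KO lymphatic-like cells 2 were higher and 4 lower of 28 (background 9.92%). In control cells lymphatic-like clusters held 253 CPM of Jup and 188 CPM of Ptprb, against 78.7 and 1477 CPM in blood endothelial clusters. Nectin2 and Pard3, a polarity gene, were also higher in lymphatic-like cells, with ratios of 4.03 (3.47 to 4.68) and 2.89 (2.19 to 3.82) in control and 3.66 (3.23 to 4.15) and 2.69 (2.3 to 3.16) in KO cells. Icam2 was at 0.445 and 0.494 times, and Cgnl1, the paracingulin gene, at 0.422 and 0.324 times the blood endothelial level. Cgnl1 was instead 6.07-fold (4.78 to 7.78) and 4.67-fold (3.97 to 5.52) higher in large artery-like than in venous-like cells.

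The genes whose levels ran most closely with those of 3 members were sought among 10518 genes, by Pearson's r of log2 CPM over the 21 sums, which share libraries and depth. For Cldn11 they included 1190005I06Rik (r = 0.92) and Prox1 (r = 0.91). For Jam2 they were AU021092 (r = 0.97), Mecom (r = 0.96) and Nkx2-3 (r = 0.96). For Cldn5 they were Tpd52 (r = 0.93), Plcd3 (r = 0.93) and Fn1 (r = 0.90).

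Outside the endothelium the 10 genes were read in few cell types. Pecam1 was the main exception: it stood at 185 (179 to 192) and 131 (125 to 138) CPM in B cell-like and at 117 (113 to 122) and 97 (90.7 to 104) CPM in T cell-like cells. After thinning, 24.1% of control and 18.7% of KO non-endothelial cells kept a Pecam1 UMI. In epithelial-like cells, which do not use the gene, these shares were 0% and 1.45%. The median depths were 7090 and 7754 UMIs in all non-endothelial cells and 51503 and 45620 UMIs in epithelial-like cells.

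Fibroblast and smooth muscle cells held 86.8 (61.4 to 119) and 83.6 (59.98 to 113) CPM of Jam3, 86.8 and 57.1 CPM of Esam and 41.1 and 59.1 CPM of Tjp1, with 0 UMIs of Cdh5 in either library. Epithelial-like cells held 56.4 (46.3 to 68) and 47.9 (41.5 to 55) CPM of Ocln, above every endothelial cluster, and 64.7 and 47.7 CPM of F11r. In all non-endothelial cells together Cldn5 was at 2.68 (2.24 to 3.17) CPM in control and 7.5 (6.6 to 8.49) CPM in KO cells, and 0.553% and 1.51% of cells kept a Cldn5 UMI after thinning. Cldn11, Jam2 and Jam3 were at or below 2.43 CPM in these cells. Free RNA gives UMIs in cells that do not express a gene, and levels of this size were not read as expression.

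**Figure D4:**
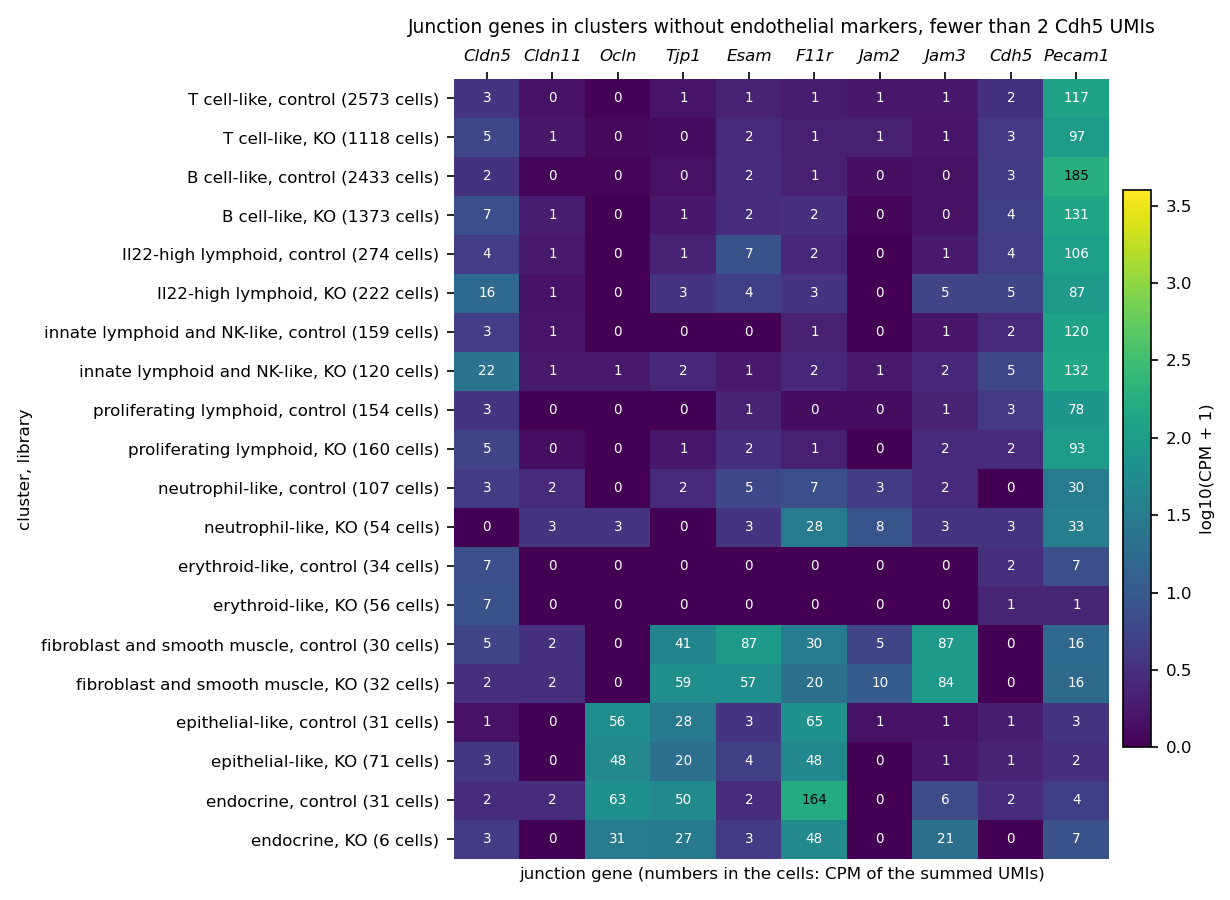
Levels of the 10 genes (columns, CPM on a logarithmic colour scale) in the non-endothelial clusters and libraries (rows). Pecam1 fills the rows of lymphocytes, Ocln and F11r those of epithelial-like and endocrine cells, and Esam, Jam3 and Tjp1 those of fibroblasts and smooth muscle cells.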

How the data were processed

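CD31+ mesenteric cells were profiled with Chromium Single Cell 3′ v3, and the authors aligned the reads and counted UMIs with Cell Ranger 3.0 on mm10 (submitters' processing notes). The deposited values are raw UMI counts per gene and cell, without normalization, of 64639756 UMIs in the control and 60805779 in the KO library. The 6 barcodes present in both libraries and the 142 control and 37 KO cells that Scrublet (scanpy 1.11.5) called doublets were kept. Cells were clustered with Seurat 5.3.0 in R 4.3.3 after anchor integration (10000 counts per cell, log transformation, 2000 variable features, 30 dimensions, resolution 0.8), with the 10 members and 47 partner genes left out. Non-endothelial types come from a clustering of all cells.

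UMIs were summed per cluster and library in Python 3.11.15 (numpy 2.4.6, scipy 1.17.1, pandas 2.3.3, matplotlib 3.10.9). Sums carry exact Poisson, ratios exact conditional and shares Clopper-Pearson intervals at 95%. The limit printed for a count of 0 is instead the CPM of 3 counts, which is below the upper end of the exact interval. For Cldn11 in control large artery-like cells these were 2.63 and 3.24 CPM. The count of genes past 2-fold was tested on simulated counts. A cluster needed 20 cells in each library to be compared. Named were all 10 members, partner genes of the list at 100 CPM or more and past 2-fold (at most 10 per comparison), the 3 genes most like Cldn5, Cldn11 and Jam2 among those with at least 200 summed UMIs, and markers. For Cldn11, 1 of these 3 genes is not reported here. The members and lists were chosen with earlier results of these data known. Positions are on GRCm38.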

Additional observations from a re-analysis of the deposited data

Results flagged for a closer look

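For 4 genes the KO over control ratio lay on opposite sides of 1 in a pair of clusters, with both intervals excluding 1. Only genes with enough counts were searched, and Cdh5, which had set the gate, and the Ccl4-high cluster were left out. The difference between the clusters was not tested, since each library is a single sample. For Cldn11 the log2 ratio in proliferating-like cells exceeded that in collecting lymphatic-like cells by 3.07. For Cldn5 it exceeded that in Mmrn1-high lymphatic-like cells by 1.80 in proliferating-like cells. For Jam2 the log2 ratio in high endothelial venule-like cells exceeded that in venous-like cells by 1.54. For F11r the log2 ratio in high endothelial venule-like cells exceeded that in collecting lymphatic-like cells by 0.62.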

How the results depend on the processing

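No paired analysis was possible because each group was a single library, and for the same reason no replicate could be left out. Of 245 alternatives of the 21 counts and summaries, 214 stayed close to the reported count. Of 292 alternatives of the 24 single ratios past 2-fold, 274 did, and 0 reversed. A count cannot reverse, and ratios within 2-fold were not followed. The Cldn11 ratio between the libraries in venous-like cells, whose direction differed with the mean of per-cell CPM, was among the latter. Of 163 levels of at least 20 CPM, between 125 of 133 (resolution 0.4) and all 163 stayed within 1.5 times under the settings that kept their clusters. Changes of the cells or of the scaling moved the median ratio of all genes in gated cells by at most 0.03 on the log2 scale.

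Members past the fold between libraries changed as follows, and where no construction explains it the cause was not tested. No background over all genes was taken for the alternatives in this section, so whether members changed more than other genes cannot be read from them. With a limit of 1.5-fold they were 3 in Mmrn1-high, 5 in collecting, 1 in high endothelial venule-like, 2 in large artery-like, 2 in Cxcl12- and Rbp7-high, 6 in proliferating-like and 4 in Ccl4-high cells, 25 in all instead of 9. Without a count minimum they were 2 in Mmrn1-high and 2 in Cxcl12- and Rbp7-high cells, 14 in all. Without integration they were 2 in Mmrn1-high and 0 in venous-like cells, 5 in all, and without cells with at least 2 Ptprc UMIs 5 in all. In collecting lymphatic-like cells the 2 became 1 with a gate of 1 Cdh5 UMI or the mean of per-cell CPM, and 0 when mitochondrial, hemoglobin and ribosomal protein genes were taken out of the CPM or with ratios centred on the median of all genes. In venous-like cells the 2 became 0 at resolution 1.6 and 1 with the mean of per-cell CPM or without the cells that join the H19-high cluster. In Cxcl12- and Rbp7-high cells the 0 became 1 with a gate of 3 Cdh5 UMIs or without called doublets. Centring and the removal of joining cells were chosen after seeing the data, as were the partner gene alternatives, which gave 10 pairs without integration, 59 without a minimum and 58 at 1.5-fold instead of 16.

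The H19-high cells differed from lymphatic-like cells in 2 genes instead of 1 at resolution 1.6. Lymphatic-like and blood endothelial cells of the control library differed in 9 genes instead of 5 with the mean of per-cell CPM. Pairs of member and non-endothelial cluster at 20 CPM or more in the KO library were 11 instead of 17 after a cell filter (1000 UMIs or more, mitochondrial share up to 10%), and 26 without the 3 gene groups above. Some clusters had merged or held fewer than 20 cells in a library under other gates or resolutions and gave no value there.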

Other observations

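In the clusters built from all cells regardless of the Cdh5 gate, a Marco-high cluster of 90 control and 137 KO cells held 397 CPM of Jam3 in control and 358 CPM in KO cells, with Jam2 at 4.76 and 6.24 CPM. The gated Marco-high cells described above are fewer and deeper.

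Limits: each library is 1 sample of pooled mice, the libraries differ in sex, and the isolation used the Pecam1 product. At the median depth of these cells a gene at a few CPM, such as Ocln in most clusters, gives only some UMIs per cluster, and small differences in it were not detectable. The H19-high cluster came from the KO library alone.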
